A study of Mus musculus with 6 samples.

Results

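Growth factors of the germ cell niche are the secreted and membrane-bound signals by which somatic cells of the testis support germ cells, and 10 of them were examined here: Kitl, Gdnf, Fgf2, Lif, Cxcl12, Bmp4, Igf1, Nrg1, Hgf and Csf1. Every non-control probe whose transcript accession mapped to one of these symbols was taken, which gave 21 of 56605 probes, between 1 and 3 for each of the 10 genes (of 23462 genes with a symbol on the arrays). The measurements came from TM4, a male mouse somatic line from the testis, often taken to stand for Sertoli cells. Untreated TM4 cells were compared with TM4 cells given 10 µM 4-nitrophenol (PNP, a phenolic pollutant of vehicle exhaust and a breakdown product of parathion-type insecticides) for 24 h, with 3 samples in each group. Each sample was read on 1 single-colour array, and precision is limited by having only 6 arrays. No label states that the samples of a group were grown separately, and p-values therefore reflect sample-to-sample spread that may be technical. The samples are of the line alone, without the germ cells that respond to these factors in the testis.

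In the testis, Sertoli cells, peritubular cells and macrophages release factors that hold spermatogonial stem cells in self-renewal or lead them into differentiation. Gdnf and Kitl are the best known pair: Gdnf, which signals through the receptor Ret and its co-receptor Gfra1, maintains stem cells, and Kitl, the ligand of the Kit receptor, is needed by differentiating spermatogonia. Fgf2, Lif, Cxcl12, Bmp4, Igf1, Nrg1, Hgf and Csf1 act beside them through receptors of their own, on germ cells or on the somatic cells themselves.

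Values are log2 of the processed signal minus the 75th percentile of the same array. A value of 0 is thus the brightness of the array's 75th percentile and 1 unit is a 2-fold difference in signal, and levels of different probes are not compared because probes differ in brightness for the same amount of RNA. The share of probes well above background was 47.8% to 57.9% per array, no spot was saturated, and arrays correlated across the tested probes at 0.969 to 0.985 within a group and at 0.965 to 0.983 between the groups. Slide 1 held untreated 1 and 2, slide 2 held untreated 3 and PNP 1, and slide 3 held PNP 2 and 3. On each slide the first-named array lay at one place and the other at the next, here called position 1 (untreated 1, untreated 3 and PNP 2) and position 2 (untreated 2, PNP 1 and PNP 3). A difference within a position thus sets 1 array, PNP 2 or untreated 2, against the mean of 2. Slide 1 held no PNP array and slide 3 no untreated array, so slide and treatment are largely confounded for every probe. Only slide 2 held both, so a difference free of slide rests on untreated 3 against PNP 1, which also differ in position. Of 15 Sertoli cell markers, 12 were well above background on all 6 arrays, Sox9, Wt1 and Gata4 among them, and Amh, Cldn11 and Fshr were on none. None of the 5 Leydig cell markers with a probe was above background on any array. All 4 peritubular myoid cell markers were above it on all 6 arrays, as were Pdgfra, Col1a1 and Dcn of 4 fibroblast markers, Cd68 and Cd14 of 5 macrophage markers (Adgre1 and Ptprc were on none), and Sycp3 of 7 germ cell markers (Ddx4, Prm1 and Tex14 were on none). No endothelial marker was above background on all 6 arrays, and Cdh5, Tek and Kdr were on none.

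Of the 21 probes, 16 were well above background on all 6 arrays, and 17 probes of 8 genes met the condition for the test, namely a signal above background on every array of the untreated group, the PNP group or both. The 4 probes that did not were both Fgf2 probes, the Lif probe and 1 Gdnf probe. With PNP, 0 of the 17 probes passed limma's moderated test at an adjusted p under 0.05 (Benjamini-Hochberg over all 28208 tested probes, of which 0% passed), and the adjusted p of the members lay between 0.289 and 0.998. At an unadjusted p under 0.05, limma gave 2 member probes as higher, 1 of Kitl and 1 of Hgf, and 1 of Csf1 as lower, against 9.38% of all tested probes in either direction (6.27% higher and 3.1% lower). The groups did not overlap for 4 member probes, against 15.3% of all tested probes, and 2 of these (Kitl and Hgf) were higher with PNP, against 7.03%. This Hgf probe, which also had the smallest adjusted p, entered the test only through the PNP group, where it was higher. Among the 16 member probes above background on all 6 arrays, 2 had an unadjusted p under 0.05. Their smallest adjusted p was 0.497 in limma. Differences ran from -0.63 (Igf1) to 1.02 (Kitl) on the log2 scale, 7 were above 0 and 10 below, and their median of -0.06 was the same, to that precision, as the median over all tested probes. The median over tested probes with a gene symbol was -0.09. In RNA from whole cultures, fewer cells making a transcript and less of the transcript per cell cannot be told apart.

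**Figure D1:**
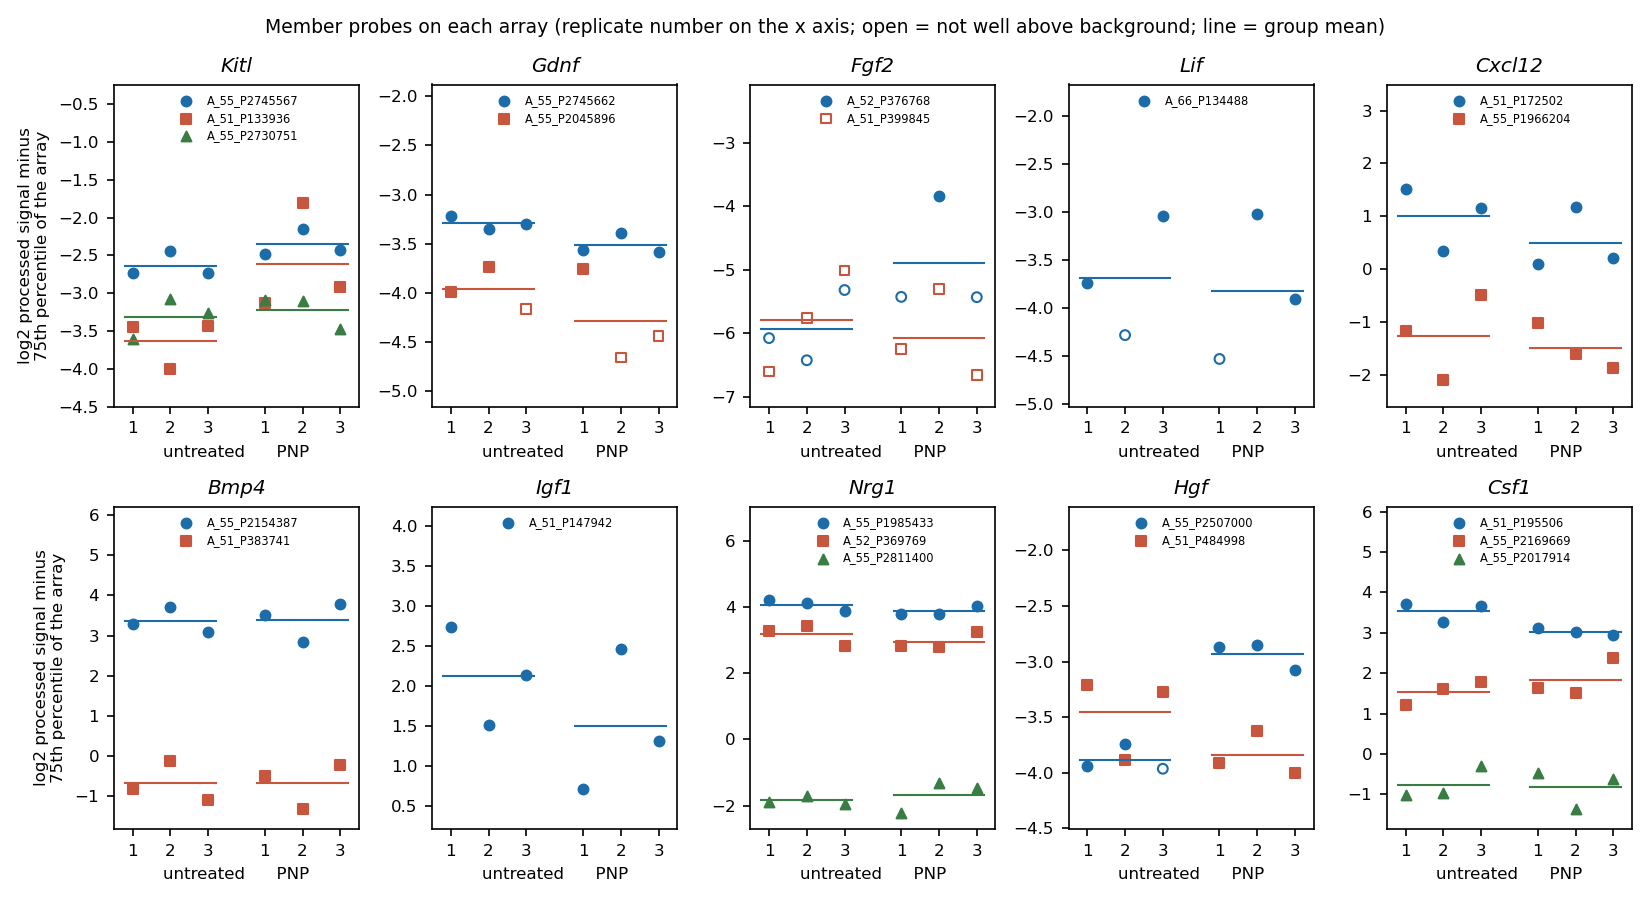
Log2 signal relative to the array's 75th percentile (vertical axis) on the 6 arrays (horizontal axis, untreated 1 to 3 and PNP 1 to 3), with a panel for each gene a symbol for each probe and lines at the group means. Filled symbols are well above background and open ones are not. The Kitl probe A_51_P133936 reaches -1.80 on PNP 2, and the Igf1 probe lies between 0.71 and 2.73 over the arrays of both groups.

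Kitl, which exists as a membrane-bound and a shed form, was represented by 3 probes, and they differed from each other in the size of the PNP difference. Probe A_51_P133936, designed to NM_013598, had values of -3.44, -4.00 and -3.44 in untreated samples 1 to 3 and of -3.12, -1.80 and -2.91 in PNP samples 1 to 3. All 3 PNP samples lay above all 3 untreated samples, and PNP 2 stood well above the others. The means were -3.63 ± 0.32 and -2.61 ± 0.71 (SD, n = 3 each), a log2 difference of 1.02 ± 0.36 (SE; 95% interval 0.20 to 1.83), which is 2.02-fold, with an adjusted p of 0.442 in limma. Without PNP 2 the difference was 0.61, with normexp background correction 0.28, and within slide 2 alone, which held untreated 3 at position 1 and PNP 1 at position 2, 0.31. With treatment in the fit, position 2 minus position 1 was -0.89 for this probe (limma, adjusted p = 0.0679), and treatment and position cannot be told apart within slide 2. Within positions 1 and 2 the PNP difference was 1.64 and 0.98, and with position as a block it was 1.31 ± 0.21 (limma, adjusted p = 0.158). The first of these rests on PNP 2 alone among PNP arrays, and the second on untreated 2, the lowest untreated value.

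The other Kitl probes are both designed to NM_001347156. Probe A_55_P2745567 read -2.73, -2.44 and -2.73 untreated and -2.48, -2.15 and -2.43 with PNP. Untreated 2 lay among the PNP samples, and the difference was 0.28 ± 0.20 (SE; 95% interval -0.18 to 0.75; limma, adjusted p = 0.672). Probe A_55_P2730751 read -3.60, -3.08 and -3.26 untreated and -3.09, -3.11 and -3.47 with PNP, with overlapping groups and a difference of 0.09 ± 0.22 (SE; limma, adjusted p = 0.912). The sign of that last difference turned under 3 of 5 other scalings (normexp, quantile normalization and median centring), so the 2-fold separation of A_51_P133936 was not seen on either probe of the other accession.

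Gdnf, the ligand that maintains spermatogonial stem cells, had 1 of its 2 probes tested. Probe A_55_P2745662 read -3.21, -3.35 and -3.30 in untreated samples and -3.56, -3.39 and -3.58 with PNP. The groups did not overlap, but PNP 2 and untreated 2 lay close together. The difference of -0.22 ± 0.19 (SE; 95% interval -0.65 to 0.20) did not pass in limma (adjusted p = 0.712). The second Gdnf probe, A_55_P2045896, which is designed to the same accession, was above background on 2 untreated arrays and 1 PNP array and was not tested. It read -3.99, -3.74 and -4.17 untreated and -3.75, -4.66 and -4.44 with PNP, values that overlap.

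Fgf2, a mitogen of spermatogonial stem cells, was not well above background on any untreated array with either probe. Probe A_52_P376768 read -6.07, -6.42 and -5.32 untreated and -5.42, -3.83 and -5.43 with PNP, and only PNP 2 was above background. Probe A_51_P399845 was above background on none of the 6 arrays, so no fold is given for Fgf2. Lif, a cytokine of the interleukin 6 family, was above background on 2 arrays of each group. Its single probe read -3.75, -4.28 and -3.04 untreated and -4.53, -3.02 and -3.91 with PNP, and the groups overlapped. The position 1 array was the higher one on each of the 3 slides.

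Hgf, the ligand of the Met receptor, had 2 probes with differences of opposite sign. Probe A_55_P2507000, designed to NM_001289460, read -3.94, -3.74 and -3.96 untreated and -2.87, -2.85 and -3.08 with PNP. Every PNP sample was higher than every untreated sample, and the samples of each group lay close together. The means were -3.88 ± 0.12 and -2.93 ± 0.12 (SD, n = 3 each), a log2 difference of 0.95 ± 0.19 (SE; 95% interval 0.51 to 1.39), with an adjusted p of 0.289 in limma. This probe was above background on 2 of 3 untreated arrays and entered the test only through the PNP group. The difference was 1.1 within position 1, 0.77 within position 2 and 1.09 within slide 2, but normexp background correction left 0.19. With array weights in limma it passed (0.999, adjusted p = 0.0263), in a fit where untreated 1 had a weight of 9.38 against 0.480 to 0.844 for the others and 5.33% of all tested probes passed.

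The second Hgf probe, A_51_P484998, is designed to NM_010427. It read -3.21, -3.88 and -3.27 untreated and -3.91, -3.62 and -4.01 with PNP, so that 2 PNP samples lay below all untreated ones and the groups overlapped. Its difference was -0.39 ± 0.25 (SE; 95% interval -0.95 to 0.17; limma, adjusted p = 0.635), opposite in sign to that of A_55_P2507000. Neither sign turned under any alternative that was run, though several alternatives could not change a difference. With normexp the differences were 0.19 and -0.33. Both probes were dim. Processed signals of A_51_P484998 were 33.0, 18.5 and 47.8 untreated and 29.0, 37.1 and 23.9 with PNP. The lowest signals well above background on the same arrays were 12.9, 14.5 and 33.0 untreated and 25.4, 15.8 and 16.4 with PNP.

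Csf1, the macrophage growth factor that also acts on spermatogonial stem cells, had 3 probes with differences of both signs. Probe A_51_P195506, designed to NM_007778, read 3.70, 3.27 and 3.67 untreated and 3.12, 3.02 and 2.95 with PNP. All PNP samples were lower than all untreated samples, and untreated 2 was the nearest to them. The difference was -0.51 ± 0.21 (SE; 95% interval -0.99 to -0.04; limma, adjusted p = 0.508). It was -0.66 and -0.23 within positions 1 and 2 and -0.54 within slide 2. The other Csf1 probes are both designed to NM_001113530 and their groups overlapped. Probe A_55_P2169669 read 1.21, 1.62 and 1.78 untreated and 1.64, 1.5 and 2.37 with PNP (difference 0.30 ± 0.28, SE). Probe A_55_P2017914 read -1.01, -0.97 and -0.30 untreated and -0.46, -1.36 and -0.63 with PNP (difference -0.06 ± 0.30, SE), and its sign turned under 1 other scaling. In limma their adjusted p was 0.742 and 0.960.

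Nrg1, a ligand of the ErbB receptors that takes part in spermatogonial proliferation, had its 3 probes well above background on all arrays. Probe A_55_P1985433 read 4.21, 4.13 and 3.88 untreated and 3.80, 3.78 and 4.02 with PNP. Probe A_52_P369769, designed to the same NM_178591, read 3.28, 3.43 and 2.82 untreated and 2.82, 2.79 and 3.23 with PNP. On both, untreated 3 lay near PNP 1 and 2 while PNP 3 lay among the untreated samples, and the differences were -0.20 ± 0.20 and -0.23 ± 0.24 (SE; limma, adjusted p = 0.749 and 0.763). Probe A_55_P2811400, designed to the predicted transcript XM_006509068, read -1.89, -1.71 and -1.94 untreated and -2.21, -1.33 and -1.47 with PNP, a difference of 0.18 ± 0.26 (SE; limma, adjusted p = 0.843).

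**Figure D2:**
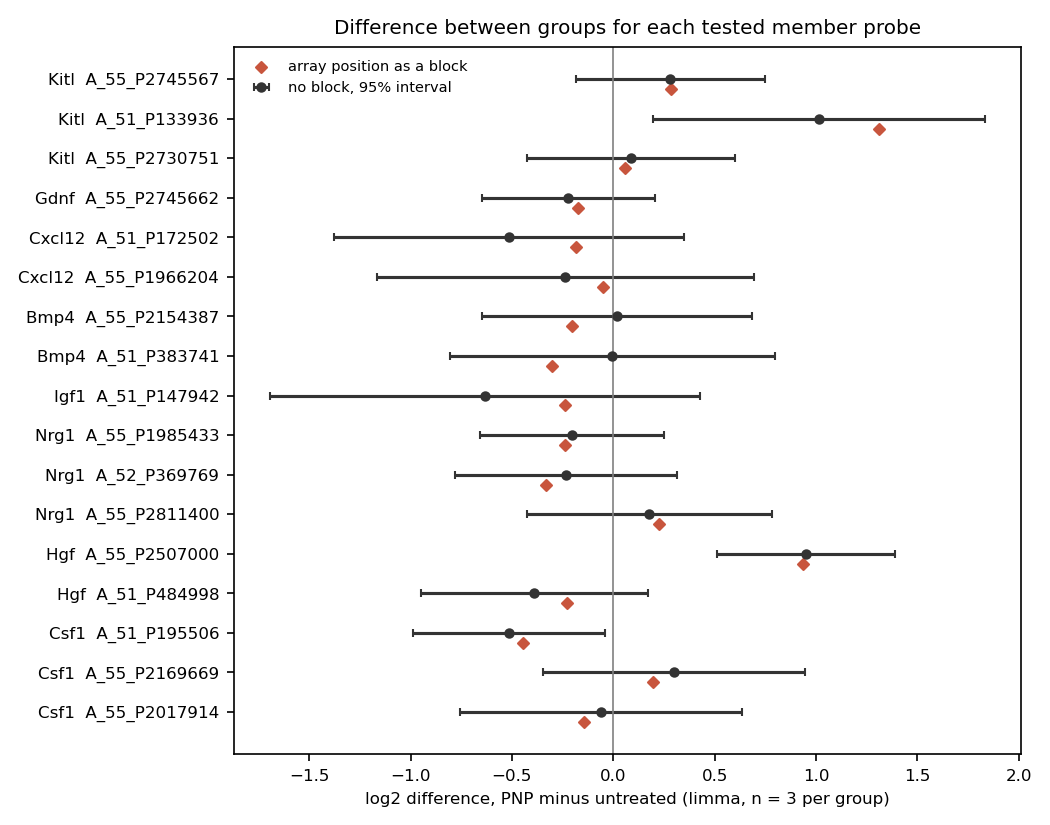
Log2 difference, PNP minus untreated (horizontal axis), for each of the 17 tested probes of 8 genes, with 95% intervals from limma. Red diamonds are the differences with array position as a block. The intervals of 3 probes, of Kitl, Hgf and Csf1, lie off 0, and for each of these genes another probe lies elsewhere, as for Hgf with 0.95 and -0.39.

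Igf1, Cxcl12 and Bmp4 had signals that differed between array positions more than between treatments. Igf1, a survival and growth factor that Sertoli and Leydig cells secrete, had 1 probe, A_51_P147942, with values of 2.73, 1.51 and 2.13 untreated and 0.71, 2.46 and 1.30 with PNP. The highest values were those of untreated 1, PNP 2 and untreated 3, which are the position 1 arrays. The PNP difference was -0.63 ± 0.47 (SE; 95% interval -1.70 to 0.43; limma, adjusted p = 0.676), and it was 0.03 within position 1, -0.51 within position 2 and -0.24 ± 0.27 with position as a block. With treatment in the fit, position 2 minus position 1 was -1.19 ± 0.27 (SE), so position 1 was 2.28-fold higher, with an adjusted p of 0.0624 in limma. The gap had the same sign on all 3 slides, at -1.22, -1.42 and -1.16.

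Cxcl12, the chemokine that draws germ cells and stem cells to their niche, was higher at position 1 with probe A_51_P172502. It read 1.51, 0.35 and 1.16 untreated and 0.10, 1.17 and 0.21 with PNP, and again untreated 1, untreated 3 and PNP 2 were the high arrays of both groups. The PNP difference was -0.52 ± 0.38 (SE; 95% interval -1.38 to 0.35; limma, adjusted p = 0.675), -0.17 within position 1, -0.19 within position 2 and -1.06 within slide 2. Position 2 minus position 1 was -1.0 ± 0.19 (SE), which is 2.00-fold and passed in limma (adjusted p = 0.0374). The second Cxcl12 probe, A_55_P1966204, is designed to another transcript (NM_021704) and read -1.18, -2.11 and -0.50 untreated and -1.01, -1.61 and -1.87 with PNP. Its positions overlapped, its position difference was -0.55 (limma, adjusted p = 0.472), and its PNP difference was -0.24 ± 0.41 (SE; adjusted p = 0.866).

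Bmp4, a ligand of the TGF-beta superfamily with a part in germ cell differentiation, was higher at position 2. Probe A_51_P383741 read -0.83, -0.12 and -1.09 untreated and -0.50, -1.32 and -0.23 with PNP. Probe A_55_P2154387 read 3.28, 3.72 and 3.09 untreated and 3.52, 2.85 and 3.78 with PNP. In both, untreated 2, PNP 1 and PNP 3 were the high arrays, and the treatment groups overlapped. The position difference was 0.90 ± 0.19 (SE; limma, adjusted p = 0.0498) for the first and 0.67 ± 0.19 (adjusted p = 0.098) for the second. The PNP differences were -0.0047 ± 0.35 and 0.02 ± 0.29 (SE; limma, adjusted p = 0.998 and 0.991), and each turned sign under 1 other scaling. Within positions 1 and 2 they were -0.36 and -0.25 for the first probe and -0.34 and -0.07 for the second. With position as a block they were -0.30 ± 0.19 and -0.20 ± 0.19 (SE; limma, adjusted p = 0.448 and 0.594). Within slide 2, where PNP 1 lay at position 2, they were 0.59 and 0.43.

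In all, 2 of the 17 member probes (of Cxcl12 and Bmp4) passed between positions at an adjusted p under 0.05, against 3.47% of all tested probes, and 6 had an unadjusted p under 0.05 in limma, against 21.8%. Without any 1 of the 6 arrays, 0 member probes passed, and the 979 calls among all tested probes became 640 without PNP 1, 1 without untreated 2 and 0 without each of the others. Positions did not overlap for 3 member probes that were higher at position 1, of Igf1, Cxcl12 and Hgf (A_51_P484998) (background 11.1%), and for the 2 Bmp4 probes that were higher at position 2 (background 11.8%). Position is a label in the file headers, and what differed between the places was not tested.

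**Figure D3:**
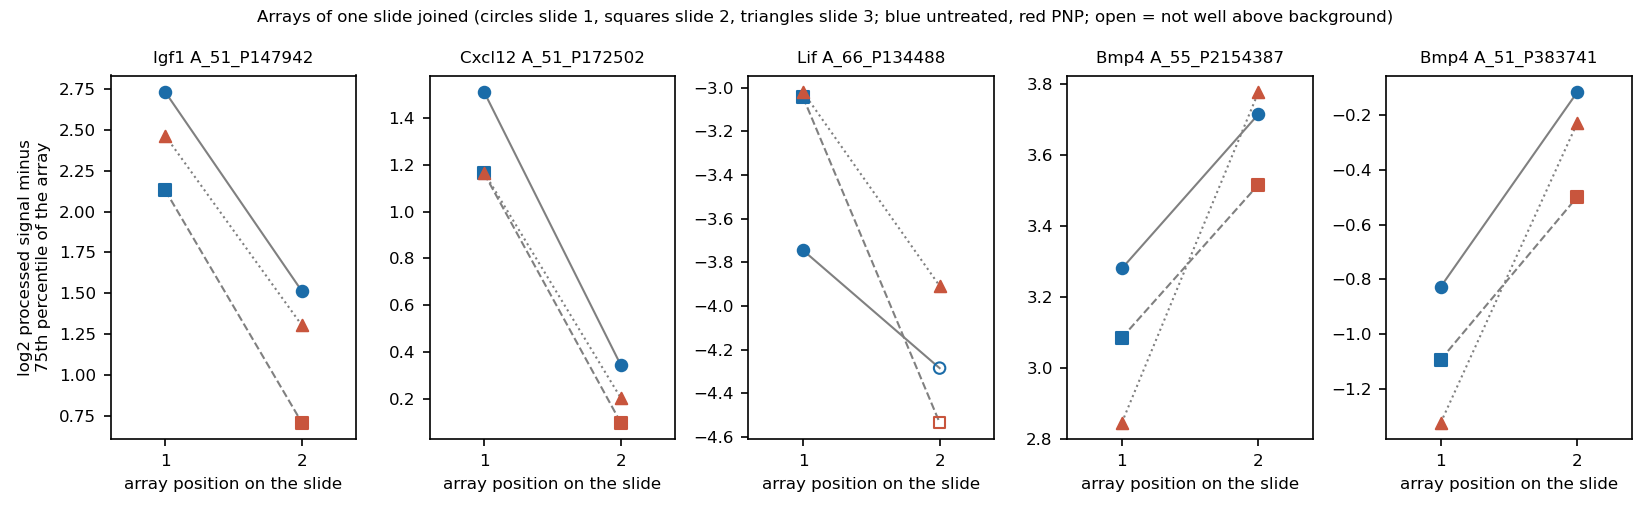
Log2 signal relative to the array's 75th percentile (vertical axis) at array positions 1 and 2 (horizontal axis) for probes of Igf1, Cxcl12, Lif and Bmp4, with lines joining the arrays of a slide, a symbol for each slide, blue for untreated, red for PNP and open symbols where not well above background. Igf1, Cxcl12 A_51_P172502 and Lif go down from position 1 to position 2 on all 3 slides, and both Bmp4 probes go up.

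The 150 bases before the RefSeq start site (GRCm38.p6) are shown for these 3 genes, because Igf1 and Cxcl12 A_51_P172502 were high on the same arrays and Bmp4 was low on them. The stretches are Igf1 at chr10:87860961-87861110 (plus strand), Cxcl12 at chr6:117168385-117168534 (plus strand) and Bmp4 at chr14:46390670-46390819 (minus strand). Capitals mark matches, on either strand, to the TATA box core TATAAA, the GC box core GGGCGG or the CCAAT box core.
Igf1: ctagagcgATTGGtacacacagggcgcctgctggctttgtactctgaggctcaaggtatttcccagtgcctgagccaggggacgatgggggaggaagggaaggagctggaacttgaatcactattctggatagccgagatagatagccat
Cxcl12: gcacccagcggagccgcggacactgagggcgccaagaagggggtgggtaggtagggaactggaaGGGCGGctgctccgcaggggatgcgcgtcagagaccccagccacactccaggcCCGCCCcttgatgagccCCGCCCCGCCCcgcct
Bmp4: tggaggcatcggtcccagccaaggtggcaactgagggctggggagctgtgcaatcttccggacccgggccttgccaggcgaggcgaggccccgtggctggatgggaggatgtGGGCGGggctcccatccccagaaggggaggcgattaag
The Cxcl12 stretch holds 4 GC box cores, the Bmp4 stretch 1 and the Igf1 stretch 0. Igf1 alone of the 3 holds a CCAAT box core, and none of the 3 holds a TATA box core. Lif (not tested) and Hgf A_51_P484998 were also higher at position 1, and the stretches of both genes, not shown, hold none of these cores. For that Hgf probe, position 2 minus position 1 was -0.49 (limma, adjusted p = 0.167), but -0.03 with normexp. The other Hgf probe, A_55_P2507000, did not share it, with 0.04 (limma, adjusted p = 0.921). Over 32851 promoters, stretches of this length at the same place held the GC box core in 28.6%, the CCAAT box core in 24.5% and the TATA box core in 7.57%. These matches are descriptions of letters and not sites of binding. The pattern by which the genes were picked follows array position, and whether promoter letters bear on it was not tested. The second Cxcl12 probe, A_55_P1966204, had overlapping positions. A promoter was found for 9 of the 10 members; Nrg1 had no entry.

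The receptors for these ligands were examined in the same cells from a list of 21 genes. Of these, 13 had a probe well above background on all 6 arrays: Fgfr1, Fgfr2 and Fgfr3 for Fgf2, Lifr and Il6st for Lif, Ackr3, the alternative receptor of Cxcl12, Bmpr1a, Bmpr2 and Acvr1 for Bmp4, Igf1r for Igf1, Erbb2, the shared partner in Nrg1 signalling, Met for Hgf, and Csf1r for Csf1. Kit, Ret, Cxcr4, Bmpr1b and Erbb4 were above background on no array, so the receptors of Kitl and Gdnf and the classical receptor of Cxcl12 were not measured above it in TM4 cells. Gfra1 was above background on PNP 2 alone and with 1 of its 2 probes, A_52_P398998, which read -2.17 there and -6.57 to -5.45 on the other arrays. The other Gfra1 probe, A_52_P311022, was above background on no array and had its lowest value, -6.95, on PNP 2. Fgfr4 was above background on 1 array, and Erbb3 on 5. PNP 2 was also the array with the highest value of the Fgf2 probe A_52_P376768 and of the Kitl probe A_51_P133936.

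With PNP, 0 of the 27 tested receptor probes passed in limma, and at an unadjusted p under 0.05 there were 2 higher and 3 lower, against 6.27% higher and 3.1% lower among all tested probes. Their median difference was -0.05, against -0.06 over all tested probes and -0.09 over those with a gene symbol. Lifr, the receptor chain for Lif, had the largest difference among the 4 receptors with the smallest p. Its probe A_55_P2159259 read -1.65, -1.79 and 0.01 untreated and 0.18, 0.04 and 0.02 with PNP, so untreated 3 lay next to the PNP samples, and the difference was 1.22 ± 0.44 (SE; limma, adjusted p = 0.446). The low arrays, untreated 1 and 2, were those of slide 1, which held no PNP sample. All values on slides 2 and 3 lay between 0.01 and 0.18, and slide and treatment cannot be told apart in this split. The other Lifr probes had differences of -0.01 and 0.03. Erbb2 had -0.77 ± 0.26 (SE; limma, adjusted p = 0.432), with -0.59 on its second probe, and Erbb3, a receptor that binds Nrg1, had -0.51 ± 0.20 (SE; adjusted p = 0.503). Erbb3 was above background on all 3 untreated arrays but on 2 of 3 PNP arrays, and so entered the test only through the untreated group. Fgfr1 had 0.60 ± 0.25 (SE; limma, adjusted p = 0.523) on one probe and -0.18, -0.17 and -0.31 on its other 3.

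**Figure D4:**
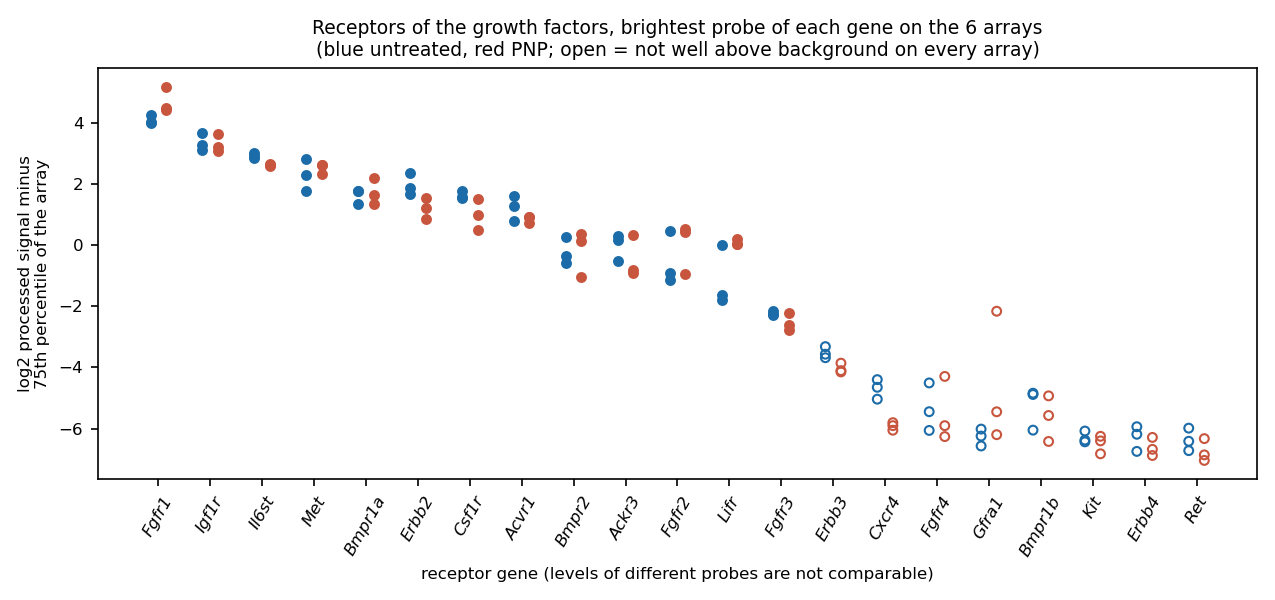
Log2 signal relative to the array's 75th percentile (vertical axis) on each of the 6 arrays for the brightest probe of each receptor (horizontal axis), blue for untreated and red for PNP, with open symbols for probes that missed that level on any array. Kit and Ret have open symbols in both groups, and Met and Igf1r are filled.

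Extracellular regulators of the members (33 genes) and ligands of the same families or receptors (32 genes) were read in the same fit. Of 31 tested probes of the regulators, 0 passed in limma, and at an unadjusted p under 0.05 there were 0 higher and 3 lower (6.27% and 3.1% of all tested probes). Of their differences 8 were above 0 and 23 below, with a median of -0.16, where 43.2% of all tested probes were above 0 and the median was -0.06. Over the tested probes with a gene symbol the median was -0.09. Hgfac, the protease that activates pro-Hgf, read -2.91, -3.09 and -2.74 untreated and -3.97 on all 3 PNP arrays. Every PNP sample lay below every untreated one, and the difference of -1.06 ± 0.19 (SE) did not pass (limma, adjusted p = 0.241). Hgfac was dim, and its value on PNP 1 lay near the lowest signal called well above background on that array. Fgfbp1, a carrier of Fgf2, had -0.72 ± 0.26, and the heparan sulfate proteoglycans Hspg2 and Sdc4 had -0.52 ± 0.22 and -0.46 ± 0.23 (SE; limma, adjusted p = 0.442, 0.532 and 0.568).

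Of 21 tested probes of related ligands, 0 passed and 0 had an unadjusted p under 0.05 in limma, with a median difference of -0.04. The 4 genes with the smallest p were Nrg4, an ErbB ligand, Fgf10, Il34, the second ligand of the Csf1 receptor, and Nrtn, a relative of Gdnf. Nrg4 had 1.33 ± 0.62 (SE) on probe A_55_P2185900, which was above background on 1 untreated and 3 PNP arrays, and -0.03 and 0.26 on the others. With position as a block these were 0.74, -0.60 and -0.13. Fgf10 had 0.65 ± 0.31 and -0.14 on its 2 probes, Il34 had -1.01 ± 0.53 and -0.98, and Nrtn had -0.31 ± 0.23 (SE). The 2 Il34 differences were -0.54 and -0.46 with position as a block. Artn, Pspn, Osm, Bmp2, Bmp5, Bmp7, Bmp8b, Igf2, Nrg3 and Tgfa were not above background on any array.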

How the data were processed

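Total RNA of 6 TM4 samples was labelled with Cy3, per the labels' protocols. The deposited intensity values are background-subtracted processed signals of Agilent Feature Extraction (11.5.1.1 per the file headers, 10.7 per the submitters' processing notes). The log2 values that the authors deposited were an alternative; their normalization is not given in the sources used here. Control and outlier spots were left out, log2 of the processed signal was taken, spots of a probe were averaged and values were taken relative to the array's 75th percentile. Probe accessions were matched to RefSeq symbols (GRCm38.p6, names only; the headers name another build). The groups' probes were tested two-sided in limma 3.58.1 (lmFit, then eBayes) with Benjamini-Hochberg adjustment and a threshold of 0.05, under R 4.3.3 with statmod 1.5.0; the fit was tested on simulated data. Position differences came from a fit with treatment and position. Every member and probe is named, every receptor by whether it was above background, and from each companion list the 4 genes with the smallest unadjusted p. The members and lists were chosen with earlier results of these data known. Alternatives changed the background correction (normexp, offset 50), scaling, filter, variance model, array weights, blocks, probe summary, threshold and arrays used.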

Additional observations from a re-analysis of the deposited data

How the results depend on the processing

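At an adjusted p under 0.05, 0 member probes passed in limma under every alternative that was run except array weights, where 1 (Hgf A_55_P2507000) of 1503 over all probes passed, with 5 companion probes. All-probe counts were otherwise 22 with position as a block after normexp (added after seeing the data) and 0 to 17 with an array left out, 17 without PNP 1 and 1 without untreated 2. Between positions, a comparison added after seeing the data, the 2 member calls became 0 without a filter, 4 with probes above background on all 6 arrays, 4 with a robust variance trend, 6 when slide was a fixed block, and 0 to 0 with an array left out. Calls over all probes, 979 as reported, were 0, 1349, 1995 and 4760 in the first 4 of these fits and 0 to 640 with an array left out.

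No pairing by replicate number was seen: same-numbered arrays had deviations with correlations of -0.42, -0.56 and -0.44. Each such pair lay at opposite array positions, so pairing and position cannot be told apart in this check. With the replicate block, 0 member probes and 0 probes in all passed between treatments, and 1 member probe between positions.

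Of 347 recomputed member differences, 16 moved by over 1 SD and 24 changed sign, 6 of these among 5 other scalings, and 10 probes kept their sign in all. Alternatives that changed only the filter, the variance trend, the replicate block or the choice of the brightest probe returned the same difference. These could not move a difference or turn its sign, so the counts include differences that were fixed in advance. Median centring moved the median of all probes from -0.06 to -0.16. The split of unadjusted p under 0.05 was 1770 higher and 875 lower, against 1175 and 1077 with normexp, 1183 and 2139 with median centring, and 2296 and 524 with the 75th percentile taken over probes above background on every array. Fgf2, Lif and the second Gdnf probe were limited by signal over background. Kitl A_51_P133936 and Hgf A_55_P2507000 were dim as well. In untreated samples 1 to 3 their processed signals were 28.1, 17.0 and 42.6 (Kitl) and 19.9, 20.3 and 29.6 (Hgf). The lowest signals well above background on those arrays were 12.9, 14.5 and 33.0. With normexp the PNP differences of these probes fell from 1.02 to 0.28 (Kitl) and from 0.95 to 0.19 (Hgf). Hgf A_51_P484998, the tested Gdnf probe A_55_P2745662 and Kitl A_55_P2730751 were similarly dim. Their signals in untreated samples 1 to 3 were 33.0, 18.5 and 47.8 (Hgf), 32.9, 26.7 and 46.8 (Gdnf) and 25.2, 32.2 and 48.2 (Kitl).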

Other observations

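Among the receptors, regulators and related ligands, 9 probes passed between array positions (limma, position with treatment in the fit, chosen after the values were seen). Position 2 minus position 1 was -1.41 and -1.58 on the log2 scale for the 2 probes of Il34, the second ligand of the Csf1 receptor (adjusted p = 0.0408 and 0.0271), -1.27 for Grem1, a secreted antagonist of Bmp4 (adjusted p = 0.0199), and -1.19 for Hbegf, an ErbB ligand (adjusted p = 0.0271). Ackr3, which binds Cxcl12, had -0.96 (adjusted p = 0.0439), the same sign as Cxcl12 probe A_51_P172502. In the other direction, the 3 probes of Nrg4 had 1.70, 1.17 and 1.76 (adjusted p = 0.0142, 0.0428 and 0.0225) and 1 probe of Fgfr2 had 1.45 (adjusted p = 0.0142). These were 6 of 21 tested probes of related ligands, 2 of 27 of receptors and 1 of 31 of regulators, against 3.47% of all tested probes. The 6 probes of related ligands belong to Nrg4, Il34 and Hbegf alone, and probes of one gene are not independent of each other. Over all probes, the 979 position calls became 640 without PNP 1, 1 without untreated 2, and 0 without each of the other arrays or with no filter.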
